A study of Rattus norvegicus with 24 samples.

Results

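The heat shock proteins and J-domain cochaperones of the rat hippocampus were taken as all genes whose symbol begins with Hspa, Hspb, Hspd, Hspe, Hsph, Hsp90, Dnaja, Dnajb or Dnajc, which gave 73 of the 20318 features in the deposited table. They comprised 10 HSP70, 3 HSP110, 3 HSP90, 2 HSP60 and HSP10, 7 small heat shock, 4 DNAJA, 13 DNAJB and 28 DNAJC genes, and 3 genes that share the letters only. Those 3 were Hspb11, an intraflagellar transport protein, Hspbp1, a nucleotide exchange factor of HSP70, and Hspbap1, a binding partner of a small heat shock protein. Hippocampal RNA came from female rats aged 6 months at surgery. Treatment rats (labelled OVX_E2_Treatment, n = 5) were ovariectomised and given vehicle for 3 weeks and then estradiol (E2) for 2 weeks. Prevention rats (labelled OVX_E2_Prevention, n = 5) were ovariectomised and given estradiol for 5 weeks. OVX rats (n = 7) were ovariectomised and SHAM rats (n = 7) kept their ovaries, and both received vehicle for 7 weeks. Here n counts libraries, and the labels do not say that these are separate animals. The labels count fewer weeks for the estradiol groups than for the vehicle groups, and the strain, the estradiol dose and the time of tissue collection are not stated in the labels.

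Chaperones of the HSP70 family bind unfolded stretches of other proteins in a cycle driven by ATP. J-domain proteins (the DNAJ families) deliver clients to HSP70 and trigger ATP hydrolysis, and HSP110 proteins release the spent nucleotide so that the cycle can restart. HSP90 takes over clients at a late stage of folding, among them steroid hormone receptors such as the estrogen receptor. Heat shock factor HSF1 induces the cytosolic members through heat shock elements in their promoters, and the unfolded protein response induces the members of the endoplasmic reticulum (ER). In neurons, Dnajc5 keeps synaptic vesicle proteins folded, and Dnajc6 works with Hspa8 to strip the clathrin coat from recycled vesicles.

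Values are normalised counts that the authors deposited, so levels can be compared between libraries for 1 gene but not between genes, since they are not per length. Of the 73 members, 67 had a mean of at least 10 over all 24 libraries and were tested among 16119 genes. The 6 below that mean were Dnajb7, Dnajb8, Dnajc5b, Dnajc5g, Hspb3 and Hspb9, whose highest values in any library were 19.5, 1.00, 6.28, 1.64, 6.05 and 20.6. Hspa1b, a near-identical copy of Hspa1a, is not a feature of the table, so values of Hspa1a may hold reads of both genes. Members together took 0.769 to 0.890% of the normalised counts of a library.

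Several properties of the libraries bear on all comparisons. In units of 1000000, column totals ran from 35.4 to 38.8 normalised counts, and reads estimated from the smallest common value in each library ran from 26.6 to 53.5. All 5 Prevention libraries and Treatment 1 and 2 held the feature LOC257642 at a log2 level of 16.8 to 19.7, against at most 15.2 in the other 17 libraries. Their estimated reads were 39.8 to 53.5, against 26.6 to 40.3 in the other 17, in the same unit. These 7 libraries are called the high set below. The labels give no batch, and no OVX or SHAM library lay in the high set, so a difference of Prevention from OVX or SHAM and a difference of the high set cannot be told apart except through the divided Treatment group. All 12 neuronal markers of the hippocampus were above 10 in each library, with sums of 142474 to 224499. Summed markers of the choroid plexus spanned 4354 to 109456 in Treatment, 5873 to 110501 in Prevention, 4772 to 111004 in OVX and 5450 to 206751 in SHAM libraries. Those of the thalamus spanned 5901 to 19081, 6884 to 23415, 5656 to 19185 and 5897 to 24192 in the same order. In whole tissue, fewer cells of a type and less RNA per cell cannot be told apart.

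No heat shock or J-domain gene differed between any 2 groups at an adjusted p under 0.05 (limma, Benjamini-Hochberg over 16119 genes, 6 comparisons, 0 of 67 members in each). The share of all tested genes called was 0% for Treatment against OVX, 0.304% for Prevention against OVX, 0% for Treatment against Prevention, 0% for OVX against SHAM, 0.0062% for Treatment against SHAM and 0.354% for Prevention against SHAM. At an unadjusted p under 0.05 the members counted 8 in Treatment against OVX (11.9% of members, against 7.19% of all genes) and 17 in Prevention against OVX (25.4%, against 18.6%). They counted 4 in Treatment against Prevention (5.97%, against 5.38%) and 2 in OVX against SHAM (2.99%, against 6.25%). They counted 2 in Treatment against SHAM (2.99%, against 6.1%) and 9 in Prevention against SHAM (13.4%, against 13.3%). Single libraries decide several of these counts. The share of all genes in the fits without single libraries is not given here, so the following member counts have no background. The 8 in Treatment against OVX became 1 without Treatment 1, 2 without OVX 2, 3 without Treatment 2 or Treatment 5, 4 without OVX 3, and 5 without OVX 1, OVX 5 or OVX 7. The 2 in OVX against SHAM became 1 without OVX 1, OVX 2, OVX 3, SHAM 4 or SHAM 7, 4 without SHAM 5 and 5 without OVX 6. The 2 in Treatment against SHAM became 1 without Treatment 1 and 4 without SHAM 2 or SHAM 5, and the 4 in Treatment against Prevention became 7 without Prevention 5. Without single libraries the counts for Prevention ran from 12 to 20 against OVX and from 7 to 12 against SHAM. The groups did not overlap for 2 members in Prevention against OVX and in Treatment against Prevention, 1 in Prevention against SHAM and 0 in Treatment against OVX (beside 0.298% of all genes), OVX against SHAM (beside 0.0248%) and Treatment against SHAM (beside 0.484%). The median log2 difference of the members lay between -0.03 (Prevention minus OVX) and 0.02 (OVX minus SHAM), beside medians of all tested genes of 0.00 in both comparisons.

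The intervals of the model of group means also bound how large a difference between groups could have been missed. For Prevention against OVX or SHAM they bound group and library set jointly, since these cannot be told apart. With the library set as a term the SE could be larger, as for Dnajb14 in Prevention minus OVX (0.19 against 0.10). Of the 63 members with a mean of at least 100, the 95% interval of the difference lay wholly within 1.5-fold up or down for 62 members in Treatment against OVX and for 63 in Prevention against OVX. It did so for 62 members in Treatment against Prevention, 63 in OVX against SHAM, 62 in Treatment against SHAM and 63 in Prevention against SHAM. The narrower bound of 1.25-fold held for 57, 50, 50, 61, 56 and 53 members in the same order. The single member outside 1.5-fold was Hspa1a, the main heat-inducible HSP70. OVX against SHAM had the narrowest intervals, with a median half-width of 0.123 on the log2 scale against 0.135 to 0.146 in the others. All comparisons share the same estimate of the spread of a gene. The widths therefore follow from the numbers of libraries, which were largest in OVX and SHAM.

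**Figure D1:**
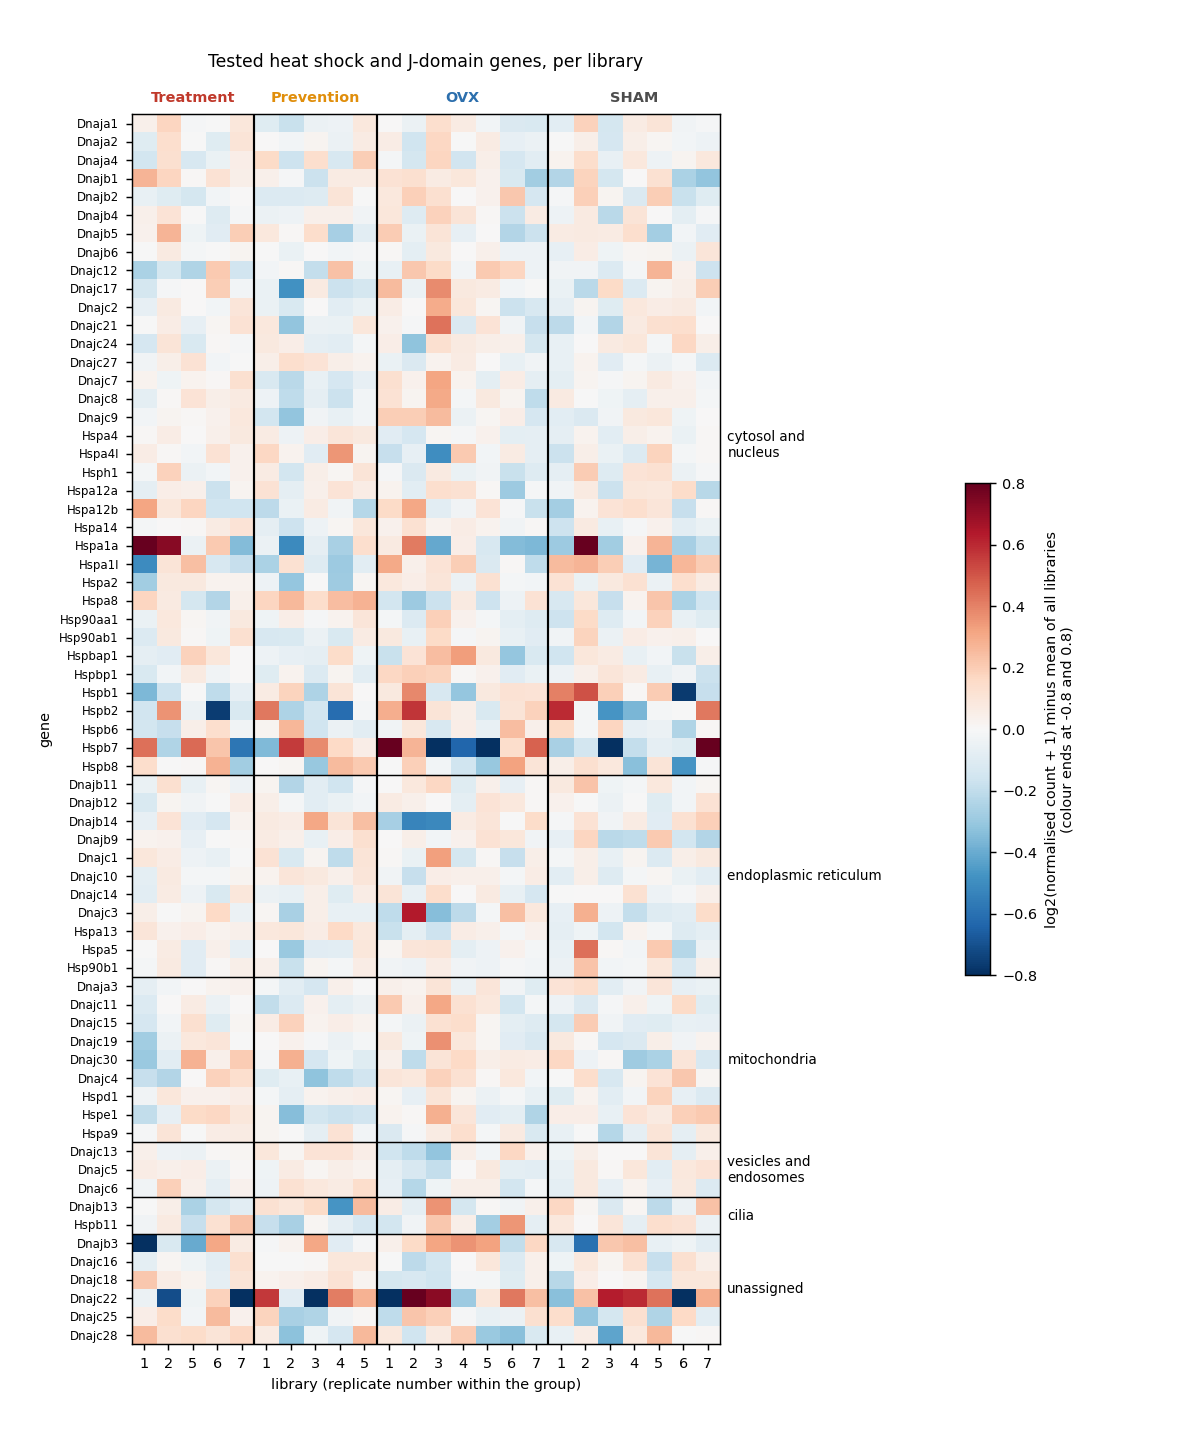
Log2(normalised count + 1) of the 67 tested members (rows, by compartment) in each of the 24 libraries (columns, by group), minus the gene's mean over all libraries. No group stands out as a block; single libraries such as OVX 3 and SHAM 2 carry many of the darker cells, and Hspa1a is highest in Treatment 1, Treatment 2 and SHAM 2.

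Among the cytosolic HSP70 genes, Hspa8, the constitutive HSC70 that also uncoats clathrin vesicles, had the smallest p of any member in Prevention against OVX. Its normalised counts were 3879, 4114, 3785, 4074 and 4172 in Prevention libraries, against 2807, 3102 and 3721 (lowest, median, highest) in OVX libraries. Every Prevention library lay above every OVX library, which was so for 2 of 67 members, beside 1.86% of all tested genes. The means were 4005 ± 165 (SD, n = 5) and 3244 ± 331 (SD, n = 7), a log2 difference of 0.31 (SE 0.08, adjusted p = 0.0655 by limma). In Treatment libraries Hspa8 split with the library set, at 3879 and 3606 in Treatment 1 and 2 (high set) and 3120, 2919 and 3531 in Treatment 5, 6 and 7. SHAM libraries held 2889, 3150 and 4001 (lowest, median, highest), and Prevention minus SHAM was 0.27 (SE 0.08, adjusted p = 0.124). With the library set as a term, Prevention minus OVX was 0.08 (SE 0.14). Without OVX 7 or OVX 4 the adjusted p of Hspa8 became 0.029 or 0.049, and without SHAM 5 that of Prevention against SHAM became 0.0467. These were the only such fits in which any member passed, 2 of 24 against OVX and 1 of 24 against SHAM.

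Hspa1a was the most variable of the well-measured members. Treatment libraries held 1597, 1487, 869, 1037 and 703 (replicates 1, 2, 5, 6 and 7), and Prevention libraries 868, 630, 850, 749 and 984. OVX libraries ran from 674 over a median of 820 to 1197, and SHAM libraries from 731 over 791 to 1554. Treatment 1 and 2 and SHAM 2 held the 3 highest values, and all groups overlapped. Treatment minus OVX was 0.38 with a 95% interval of -0.04 to 0.79 (adjusted p = 0.706 by limma), and Treatment minus Prevention was 0.43, from -0.02 to 0.87 (adjusted p = 0.918). Within the high set alone, with 2 Treatment and 5 Prevention libraries, Treatment minus Prevention was 0.93 (SE 0.15, adjusted p = 0.639). Within the other set, Treatment minus OVX was 0.04 (SE 0.21).

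The HSP110 exchange factors Hspa4, Hspa4l and Hsph1 each averaged higher in both estradiol groups than in OVX, by 0.09, 0.12 and 0.09 in Treatment and by 0.10, 0.17 and 0.08 in Prevention on the log2 scale. These comparisons share the OVX libraries. Hspa4 held 10353, 10718, 10331, 10577 and 10851 in Treatment, 10775, 9998, 10669, 11006 and 10854 in Prevention, and 9373, 9807 and 10546 (lowest, median, highest) in OVX libraries. The ranges overlapped, and the adjusted p was 0.686 for Treatment and 0.153 for Prevention against OVX. Hsph1 held 12586, 14475, 12349, 12529 and 13071 in Treatment, 13350, 11499, 13189, 12876 and 13659 in Prevention, 11271, 12273 and 13401 in OVX, and 11841, 12674 and 14667 in SHAM libraries. OVX minus SHAM for Hsph1 was -0.09 (SE 0.05, adjusted p = 0.834).

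The HSP90 genes were close to level across the groups. Hsp90aa1, the inducible cytosolic isoform, averaged 52484 ± 2278 in Treatment, 52786 ± 1842 in Prevention, 51368 ± 3837 in OVX and 51406 ± 4911 in SHAM libraries (SD, n = 5, 5, 7 and 7). Hsp90ab1, the constitutive isoform, averaged 59762 ± 3809, 56342 ± 3385, 59372 ± 3593 and 60594 ± 3184 in the same order. Its largest difference, Prevention minus SHAM, was -0.11 with a 95% interval of -0.22 to 0.01 (adjusted p = 0.417). Dnajb1, the inducible J-domain partner of Hspa1a, held 2516, 2348, 2100, 2260 and 2161 in Treatment libraries and 2145, 2079, 1857, 2182 and 2187 in Prevention libraries. OVX libraries ran from 1724 over 2185 to 2281 and SHAM libraries from 1678 over 1897 to 2365. Treatment minus SHAM was 0.21 (SE 0.08, adjusted p = 0.700), with overlapping groups, and Treatment minus OVX was 0.12 (SE 0.08). With the library set as a term, Treatment minus SHAM was 0.15 (SE 0.10).

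In the DNAJC family, 5 of 26 tested genes had an unadjusted p under 0.05 upwards and 6 downwards in Prevention against OVX (beside 10.1% and 8.56% of all genes), whatever their compartment. Dnajc7, which links HSP70 and HSP90 and is also called TPR2, held 5041, 4844, 5040, 4985 and 5401 in Treatment libraries, against 4555, 4257, 4754, 4505 and 4730 in Prevention libraries. The groups did not overlap, as for 2 of 67 members in this comparison, beside 1.2% of all tested genes. The difference was 0.15 (SE 0.06, adjusted p = 0.776), and Prevention minus OVX, with OVX libraries at 4690, 5071 and 6151, was -0.18 (SE 0.05, adjusted p = 0.0794). Dnajc9, a histone chaperone with a J domain, was the other member without overlap, at 819, 844, 836, 853 and 883 in Treatment libraries against 753, 668, 814, 798 and 818 in Prevention libraries. Its difference was 0.14 (SE 0.07, adjusted p = 0.914), and Prevention minus OVX was -0.19 (SE 0.06, adjusted p = 0.116). The 3 highest Dnajc9 values were 954, 955 and 992 in OVX 1, 2 and 3. Without OVX 7, the adjusted p against OVX was 0.0357 for Dnajc7 and 0.0451 for Dnajc9. Neither passed the threshold when any other single library was left out.

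**Figure D2:**
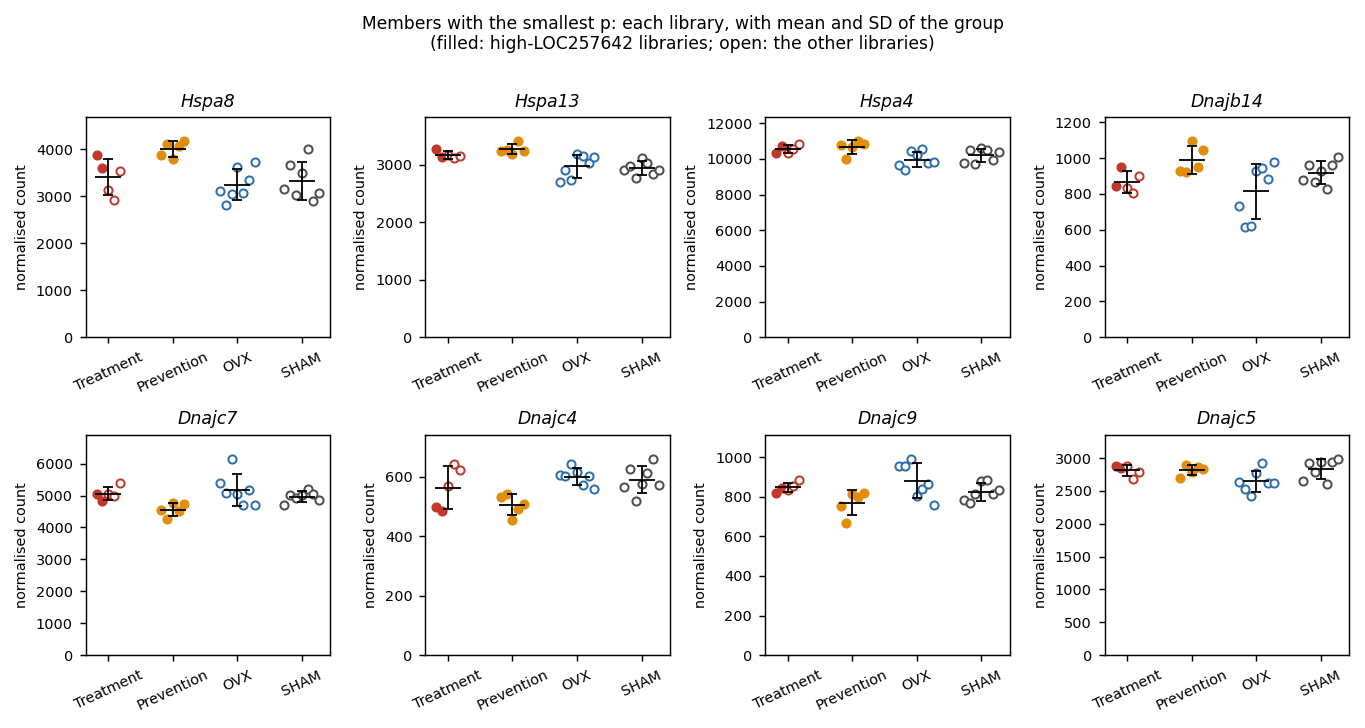
Normalised count (vertical axes, from 0) of 8 members with small p in at least 1 comparison, per library and group, with the group mean and SD; filled points are libraries of the high LOC257642 set. Hspa8 and Dnajc4 separate all Prevention from all OVX libraries, and in these panels Treatment 1 and 2 (filled) lie nearer to Prevention than Treatment 5, 6 and 7 do.

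In the ER, Hspa13, a microsomal HSP70 of the STCH type, was the member with the smallest p against SHAM for both estradiol groups. It held 3273, 3129, 3176, 3114 and 3146 in Treatment, 3246, 3258, 3193, 3414 and 3242 in Prevention, and 2761, 2917 and 3126 (lowest, median, highest) in SHAM libraries. Every Prevention library lay above every SHAM library, as for this 1 of 67 members, beside 2.48% of all tested genes. Prevention minus SHAM was 0.16 (SE 0.04, adjusted p = 0.0941) and Treatment minus SHAM was 0.11 (SE 0.04, adjusted p = 0.687). OVX libraries held 2700, 3032 and 3193, and Prevention minus OVX was 0.14 (SE 0.04, adjusted p = 0.0911). With the library set as a term, the differences from SHAM were 0.13 (SE 0.08) for Prevention and 0.10 (SE 0.05) for Treatment, so they moved less than that of Hspa8.

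Dnajb14, a J-domain protein of the ER membrane, averaged 866 ± 59.2 in Treatment, 987 ± 77.9 in Prevention, 813 ± 156 in OVX and 918 ± 63.3 in SHAM libraries (SD). Prevention minus OVX was 0.30 (SE 0.10, adjusted p = 0.119) and OVX minus SHAM was -0.20 (SE 0.09, adjusted p = 0.795). Both rest on an uneven OVX group, in which OVX 1, 2 and 3 held 733, 613 and 619 and the other 4 libraries 882 to 978. Hspa5 (BiP), the master chaperone of the ER, averaged 12178 ± 566 in Treatment, 11701 ± 1146 in Prevention, 12447 ± 586 in OVX and 12780 ± 2042 in SHAM libraries, the last with SHAM 2 at 16684. Dnajb11, a soluble partner of BiP, averaged 1556 ± 111 in Prevention, against 1684 ± 103 in OVX and 1716 ± 114 in SHAM libraries, with adjusted p of 0.258 and 0.25.

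Among the 9 mitochondrial members, Dnajc4, a J-domain protein, held 531, 543, 453, 491 and 508 in Prevention libraries, against 557, 602 and 643 (lowest, median, highest) in OVX libraries. No Prevention library reached the lowest OVX value, and the difference was -0.25 (SE 0.07, adjusted p = 0.0798). Treatment 1 and 2 held 499 and 483, while Treatment 5, 6 and 7 held 568, 643 and 622. With the library set as a term the difference turned to 0.07 (SE 0.11). Hspe1, the HSP10 lid of the mitochondrial chaperonin, averaged 1083 ± 114 in Treatment, 950 ± 85.5 in Prevention, 1064 ± 124 in OVX and 1127 ± 71.2 in SHAM libraries. Prevention minus SHAM was -0.25 (SE 0.08, adjusted p = 0.153), and with the set term it was 0.02 (SE 0.13). Hspd1, the HSP60 barrel that Hspe1 closes, averaged 6415 ± 193, 6289 ± 217, 6226 ± 258 and 6160 ± 449 in the same order of groups, and no difference exceeded 0.06. Hspa9 (mortalin), the import motor of the matrix, differed by at most 0.08 between any 2 groups.

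The 3 tested members of vesicles and endosomes were Dnajc5, Dnajc6 and Dnajc13. Each had its lowest value of all 24 libraries in an OVX library, OVX 3 for Dnajc5 and Dnajc13 and OVX 2 for Dnajc6, and the comparisons with OVX share these libraries. Dnajc5, the synaptic vesicle chaperone, held 2883, 2853, 2877, 2685 and 2792 in Treatment, 2700, 2901, 2795, 2864 and 2827 in Prevention, 2424, 2626 and 2926 in OVX, and 2606, 2921 and 2990 in SHAM libraries. OVX minus SHAM was -0.10 (SE 0.04, adjusted p = 0.795), the smallest p of a member in that comparison, and the groups overlapped. Treatment and Prevention minus OVX were both 0.09 (SE 0.04, adjusted p = 0.69 and 0.254). Dnajc6 (auxilin), which recruits Hspa8 to clathrin coats, averaged 14529 ± 1016 in Treatment, 14939 ± 726 in Prevention, 13654 ± 939 in OVX and 13996 ± 774 in SHAM libraries. Dnajc13, an endosomal J-domain protein, averaged 2349 ± 60.1, 2484 ± 70.8, 2265 ± 260 and 2378 ± 94.4 in the same order. For Prevention minus OVX, these were differences of 0.13 for Dnajc6 and 0.14 for Dnajc13, with adjusted p of 0.185 and 0.195.

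Further members had small p in single comparisons. Dnajc8, a splicing-associated J-domain protein, averaged 2867 ± 141 in Treatment and 2613 ± 144 in Prevention libraries, a difference of 0.13 (SE 0.06, adjusted p = 0.912). Dnajc11, of the mitochondrial membranes, averaged 2633 ± 271 in OVX and 2450 ± 155 in SHAM libraries, a difference of 0.10 (SE 0.06, adjusted p = 0.827). Dnajb9 averaged 1073 ± 41.0 in OVX and 1004 ± 134 in SHAM libraries, a difference of 0.11 (SE 0.06, adjusted p = 0.828). Hspa14, a ribosome-associated HSP70, averaged 788 ± 28.2 in Treatment, 790 ± 26.1 in OVX and 750 ± 40.4 in SHAM libraries, so that Treatment and OVX both lay 0.07 above SHAM (adjusted p = 0.863 and 0.831). Dnajc27 averaged 7563 ± 317 in Treatment, 7835 ± 244 in Prevention and 7228 ± 237 in SHAM libraries, with differences from SHAM of 0.07 (adjusted p = 0.831) and 0.12 (adjusted p = 0.146). Treatment minus SHAM was 0.17 for Dnajc28 (adjusted p = 0.861).

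For the remaining preset members the largest differences are listed. Among them Hspa2 had an unadjusted p under 0.05 by limma in Prevention against OVX (-0.16, adjusted p = 0.192) and against SHAM (-0.18, adjusted p = 0.228). Dnajb2 had one in Treatment against OVX (-0.14, adjusted p = 0.69). Over the 6 comparisons the difference of largest size was -0.18 for Hspa2, 0.14 for Hspa12b, -0.08 for Hspa12a and -0.04 for Hsp90b1. Among class A J-domain genes it was 0.11 for Dnaja1, 0.02 for Dnaja2, -0.06 for Dnaja3 and 0.08 for Dnaja4. Among class B genes it was -0.14 for Dnajb2, 0.05 for Dnajb4, 0.10 for Dnajb5 and -0.12 for Dnajb13. It was 0.10 for Dnajc3, 0.11 for Dnajc15, -0.07 for Dnajc19, 0.10 for Dnajc30, -0.07 for Hspb6, -0.31 for Hspb2 and 0.28 for Hspb7, of which Hspb2 and Hspb7 have low counts.

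The small heat shock genes were less tightly measured. Hspb1 (HSP27) held 261, 299, 334, 292 and 321 in Treatment libraries, all below the Prevention, OVX and SHAM medians of 351, 354 and 383, yet SHAM libraries alone ran from 197 to 478. Treatment minus SHAM was -0.21 with a 95% interval of -0.53 to 0.11 (adjusted p = 0.877). Hspb8, which works with Bag3 in selective autophagy, averaged 830 ± 115, 835 ± 122, 825 ± 119 and 780 ± 119 in Treatment, Prevention, OVX and SHAM libraries. The annotated gene models of Hspb2 and Cryab overlap, as do those of Hspd1 and Hspe1 and of Hspa1l and Hspa1a, so the values of these genes are less certain.

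**Figure D3:**
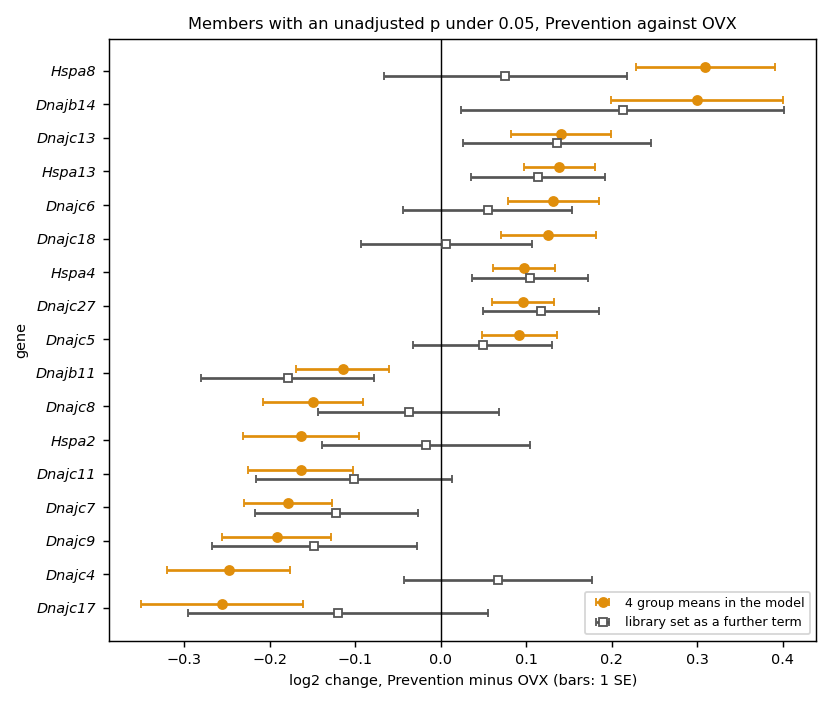
Log2 difference of Prevention minus OVX (horizontal axis) for the 17 members with an unadjusted p under 0.05, from the model of group means (filled circles) and with the library set as a further term (open squares); bars are 1 SE. Hspa8 is at 0.31 without and 0.08 with the set term and Dnajc4 changes sign, while Hspa4, Hspa13, Dnajc13 and Dnajc27 stay close to their first value with wider bars.

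The 17 members with small p in Prevention against OVX were divided into 9 higher (background 10.1% of all genes) and 8 lower (background 8.56%). With the library set as a term, 16 of the 17 kept their sign and 0 kept an unadjusted p under 0.05. The counts at that p over all 67 members were then 2 (2.99%, against 3.55% of all genes), namely Hspa1a and Hspa12b. Treatment against OVX had 8 members with small p. In the low set alone, with 3 Treatment libraries, all 8 kept their sign. There 0 of the 8, and 0 of all 67 members, had a p under 0.05, beside 3.31% of all genes. With all libraries, the 5 members with the smallest p in Treatment against OVX were Dnajc18, Dnajc12, Hspa4, Hspa13 and Dnajc28. Their log2 differences were 0.14, -0.20, 0.09, 0.09 and 0.24, with adjusted p of 0.679 to 0.69. Dnajc12, a cochaperone of the aromatic amino acid hydroxylases, held 461, 499, 466, 636 and 495 in Treatment libraries against 529, 611 and 640 in OVX libraries. Its outlying value of 636 was in Treatment 6, a library with high thalamus markers, and with the thalamus score as a covariate the difference was -0.20 (SE 0.07, adjusted p = 0.455).

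Other genes of the folding network were counted from lists of 10 HSF1 regulators, 19 HSP90 cochaperones, 18 HSP70 cochaperones, 14 subunits of the chaperonin TRiC and prefoldin, 21 ER folding genes, 13 mitochondrial folding genes and 2 further small heat shock genes. No listed gene passed the adjusted threshold in any comparison. TRiC and its loader prefoldin fold actin and tubulin, and 13 of these 14 genes averaged lower in Prevention than in OVX libraries, with 6 at an unadjusted p under 0.05 (beside 8.56% of all genes). The list's median difference was -0.07, beside 0.00 for all tested genes. The prefoldin subunit Vbp1 averaged 1950 ± 128 in Prevention and 2295 ± 170 in OVX libraries, a difference of -0.23 (SE 0.06, adjusted p = 0.0648). Pfdn5, another subunit, averaged 1936 ± 52.3 and 2216 ± 223, a difference of -0.19 (SE 0.06, adjusted p = 0.0906). In Treatment against OVX, which shares the OVX libraries, 7 of the 14 averaged lower, among them Vbp1 by -0.12 (adjusted p = 0.694), Pfdn1 by -0.12 (adjusted p = 0.719) and Pfdn5 by -0.07 (adjusted p = 0.789), and 5 of the 7 others lay between 0.0004 and 0.005. OVX minus SHAM was 0.12 for Pfdn1 (adjusted p = 0.804) and 0.07 for the TRiC subunit Cct8 (adjusted p = 0.834).

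Hsf1, the heat shock factor itself, averaged 1569 ± 62.2 in Prevention, against 1795 ± 193 in OVX and 1756 ± 91.4 in SHAM libraries. Those differences were -0.19 (SE 0.06, adjusted p = 0.0947) and -0.16 (SE 0.06, adjusted p = 0.21). The coactivator Ep300 averaged 878 ± 42.2 in Prevention and 706 ± 97.4 in OVX libraries without overlap, a difference of 0.33 (SE 0.09, adjusted p = 0.0773). It averaged 850 ± 116 in Treatment and 821 ± 69.1 in SHAM libraries, so that Treatment minus OVX was 0.27 (SE 0.09, adjusted p = 0.619) and OVX minus SHAM was -0.23 (SE 0.08, adjusted p = 0.795). OVX and SHAM libraries all lie outside the high set, and the cause of these Ep300 differences was not tested. Hsf1 averaged 1644 ± 53.3 in Treatment libraries, and Treatment minus OVX was -0.12 (adjusted p = 0.69). For Hsbp1, which binds HSF1, OVX minus SHAM was 0.09 (adjusted p = 0.827). Of the 21 ER folding genes, 4 had an unadjusted p under 0.05 upwards (beside 10.1% of all genes) and 4 downwards (beside 8.56%) in Prevention against OVX. The stress sensor Atf6 averaged 2210 ± 96.5 in Prevention against 1939 ± 123 in OVX libraries, a difference of 0.19 (SE 0.05, adjusted p = 0.0691), and Eif2ak3 (PERK), another sensor, averaged 1219 ± 105 against 1109 ± 54.5, a difference of 0.13 (adjusted p = 0.156). Syvn1, a ubiquitin ligase that disposes of ER proteins, averaged 4137 ± 187 in Treatment and 4415 ± 158 in OVX libraries, a difference of -0.09 (adjusted p = 0.679). Treatment minus OVX was 0.10 for Atf6 (adjusted p = 0.699), and OVX minus SHAM was -0.08 for Atf6 (adjusted p = 0.828) and 0.09 for the stress factor Xbp1 (adjusted p = 0.878). Timm44, which anchors the mitochondrial HSP70 at the import channel, averaged 1471 ± 27.3 in Prevention and 1632 ± 93.6 in OVX libraries without overlap, a difference of -0.15 (SE 0.04, adjusted p = 0.084). The matrix protease subunit Clpp differed by -0.22 (adjusted p = 0.147) in the same comparison. Treatment minus OVX was -0.12 for Pam16 (adjusted p = 0.69), a part of the import motor, and -0.07 for Timm44 (adjusted p = 0.722). OVX minus SHAM was 0.10 for Grpel1 (adjusted p = 0.797), the exchange factor of mitochondrial HSP70, and 0.09 for Clpp (adjusted p = 0.887). HSP90 cochaperones and HSP70 cochaperones had 2 of 19 and 1 of 17 tested genes at that p in Prevention against OVX, all lower, beside 8.56% of all genes. The smallest p were those of Fkbp8 with -0.14 and Cdc37 with -0.10 among HSP90 cochaperones and of St13 with -0.10 and Hscb with -0.13 among HSP70 cochaperones. In Treatment against OVX they were those of Stub1 (-0.12, adjusted p = 0.684) and Cdc37l1 (0.12, adjusted p = 0.699), and of Bag6 (-0.06, adjusted p = 0.709) and Sec63 (0.09, adjusted p = 0.719). In OVX against SHAM, Nudcd3, a cochaperone of HSP90, averaged 996 ± 90.1 against 1115 ± 83.3, a difference of -0.16 (adjusted p = 0.795), followed by Stub1 with 0.08 (adjusted p = 0.827). Bag4, an exchange factor of HSP70, differed by -0.17 in that comparison (adjusted p = 0.795). The small heat shock gene Cryab averaged 1489 ± 129 in Prevention, against 1784 ± 304 in OVX libraries (adjusted p = 0.527). The differences of Prevention from OVX cannot be told apart from the library set.

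Between libraries of the same group, Dnajb1 varied by Pearson r with 4 of the 8 members it was paired with. These 8 are listed as heat-inducible, though the list includes the constitutive Hspa8. In the 17 libraries outside the high set, with group means subtracted, Dnajb1 was correlated with Hspa1a (Pearson r = 0.78, Spearman rho = 0.686, adjusted p = 0.0042 by permutation within groups). It was also correlated with Dnaja1 (r = 0.725, rho = 0.721, adjusted p = 0.0202), Hsph1 (r = 0.71, rho = 0.689, adjusted p = 0.0286) and Hsp90aa1 (r = 0.675, rho = 0.571, adjusted p = 0.0339). Relations of Dnajb1 with Hspa8 (r = 0.233), Hspb1 (r = 0.345), Dnaja4 (r = 0.164) and Hspa4l (r = 0.126) did not pass. In all, 15 pairs were computed and 6 passed by Pearson r, with p-values adjusted over the 15. The share of all tested genes that vary with Dnajb1 or Hspa5 in these libraries is not given, so these counts have no background. The adjusted p-values given above are those of r. By Spearman rho, Hsp90aa1 did not pass (adjusted p = 0.0877 by permutation). Hspa1a, Dnaja1 and Hsph1 passed by rho (adjusted p = 0.0296, 0.0296 and 0.0394 by permutation). Without the 2 libraries farthest from the median of Dnajb1 (SHAM 7 and OVX 7), r was 0.824 for Hspa1a, 0.745 for Dnaja1, 0.790 for Hsph1 and 0.657 for Hsp90aa1. With the choroid plexus and thalamus marker scores subtracted as well, r was 0.807, 0.580, 0.556 and 0.369 for the same genes, of which Hspa1a passed (adjusted p = 0.0015).

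Hspa5 was paired with 7 ER members, of which 2 passed by Pearson r and by Spearman rho. The adjusted p-values given are those of r. It was correlated with Hsp90b1, the HSP90 of the ER also called GRP94 (r = 0.884, rho = 0.708, adjusted p = 0.0042 by permutation), and with Dnajb11 (r = 0.753, rho = 0.637, adjusted p = 0.0047). The relation with Dnajb9 had r = 0.696 (adjusted p = 0.0886), and Dnajc3, Dnajc10, Dnajb12 and Hspa13 had r between -0.134 and 0.354. These relations lean on SHAM 2 and SHAM 5, where Hspa5 held 16684 and 14199. Without both libraries r was 0.615 for Hsp90b1 (permutation p = 0.042) and 0.515 for Dnajb11 (permutation p = 0.0501), and for Dnajb9 it was -0.219. The 17 libraries differed in estimated reads (26.6 to 40.3, in units of 1000000) and in choroid plexus score (5.70 to 11.9), and the part of depth in these values was not tested.

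**Figure D4:**
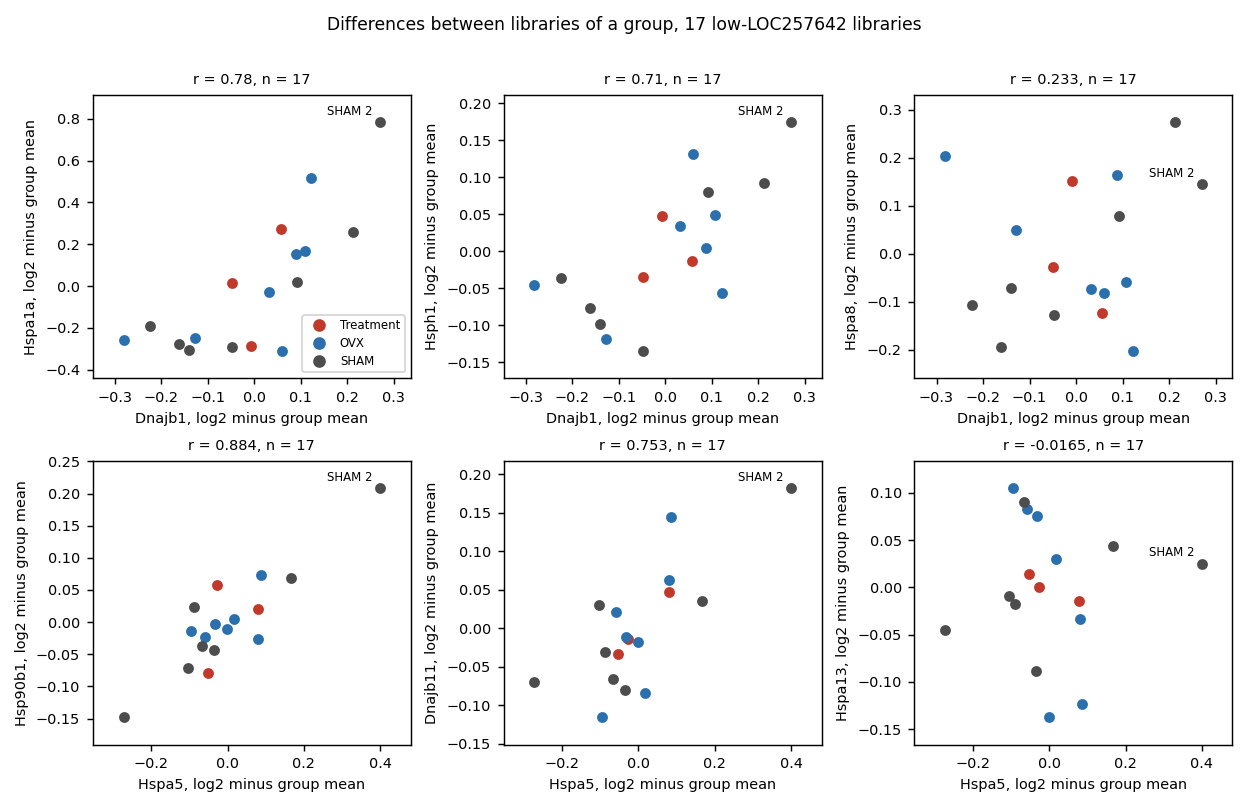
Log2 level minus the group mean of Dnajb1 or Hspa5 (horizontal axes) against 3 other members each (vertical axes) in the 17 libraries outside the high set, coloured by group, with Pearson r above each panel. Hspa1a and Hsph1 follow Dnajb1 across the range and Hspa8 does not; SHAM 2 lies far from the others in the panels of Hspa5.

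Promoter sequences are shown for members paired with Dnajb1 or Hspa5, and for the mitochondrial Hspe1, because the known regulatory elements can be read in them. RefSeq promoters (build GRCr8, from 250 bases before to 50 after the annotated start) were matched for 59 of 73 members. A heat shock element of 3 alternating units, searched as GAANNTTCNNGAA on both strands, was in 5 of these 59 (8.47%), namely Dnaja1, Hspa8, Hspd1, Hspe1 and Hsph1, and in 0.798% of all 33465 promoters. A shorter element of 2 units (GAANNTTC or TTCNNGAA, contained in the longer one) was in 16 of 59 (27.1%) and in 15.8% of all. The ER stress element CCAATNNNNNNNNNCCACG was in 3 of 59 (5.08%), namely Dnajc3, Hsp90b1 and Hspa5, and in 0.0657% of all. The windows of 4 genes with the heat shock element in capitals follow, then those of 2 genes with the ER stress element in capitals, each 5′ to 3′ on the gene's strand.
Hsph1, GRCr8 chr12:10427118-10427417, plus strand: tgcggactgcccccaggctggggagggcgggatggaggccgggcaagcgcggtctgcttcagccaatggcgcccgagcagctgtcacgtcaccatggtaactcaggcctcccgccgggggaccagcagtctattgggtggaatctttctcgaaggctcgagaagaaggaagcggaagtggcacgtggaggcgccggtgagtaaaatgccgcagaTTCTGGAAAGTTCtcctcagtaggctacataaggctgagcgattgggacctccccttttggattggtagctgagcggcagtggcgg
Dnaja1, GRCr8 chr5:60638154-60638453, plus strand: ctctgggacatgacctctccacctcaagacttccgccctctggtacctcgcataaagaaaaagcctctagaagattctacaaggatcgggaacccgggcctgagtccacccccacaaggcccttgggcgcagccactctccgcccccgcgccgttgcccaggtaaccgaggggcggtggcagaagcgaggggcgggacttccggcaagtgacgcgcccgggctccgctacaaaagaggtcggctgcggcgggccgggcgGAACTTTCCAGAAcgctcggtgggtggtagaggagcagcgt
Hspa8, GRCr8 chr8:50080264-50080563, plus strand: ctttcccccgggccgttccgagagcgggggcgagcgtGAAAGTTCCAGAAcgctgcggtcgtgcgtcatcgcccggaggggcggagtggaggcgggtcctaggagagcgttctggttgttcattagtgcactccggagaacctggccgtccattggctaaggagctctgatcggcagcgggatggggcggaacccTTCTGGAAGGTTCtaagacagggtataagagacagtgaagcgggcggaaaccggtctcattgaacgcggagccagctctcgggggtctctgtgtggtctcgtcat
Hspe1, GRCr8 chr9:64084077-64084376, plus strand: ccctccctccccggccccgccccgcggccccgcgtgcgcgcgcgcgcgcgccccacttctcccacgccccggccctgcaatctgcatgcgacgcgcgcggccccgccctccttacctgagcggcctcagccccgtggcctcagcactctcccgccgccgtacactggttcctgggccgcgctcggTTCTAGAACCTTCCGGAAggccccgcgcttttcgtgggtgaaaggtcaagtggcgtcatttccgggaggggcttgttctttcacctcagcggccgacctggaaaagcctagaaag
Hspa5, GRCr8 chr3:38452766-38453065, plus strand: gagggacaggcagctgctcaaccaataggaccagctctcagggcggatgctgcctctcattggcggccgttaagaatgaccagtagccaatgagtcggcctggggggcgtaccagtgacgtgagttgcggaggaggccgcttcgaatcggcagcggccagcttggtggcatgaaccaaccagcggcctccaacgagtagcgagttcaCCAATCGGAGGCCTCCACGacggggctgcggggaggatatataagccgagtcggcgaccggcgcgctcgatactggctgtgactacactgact
Hsp90b1, GRCr8 chr7:23012244-23012543, minus strand: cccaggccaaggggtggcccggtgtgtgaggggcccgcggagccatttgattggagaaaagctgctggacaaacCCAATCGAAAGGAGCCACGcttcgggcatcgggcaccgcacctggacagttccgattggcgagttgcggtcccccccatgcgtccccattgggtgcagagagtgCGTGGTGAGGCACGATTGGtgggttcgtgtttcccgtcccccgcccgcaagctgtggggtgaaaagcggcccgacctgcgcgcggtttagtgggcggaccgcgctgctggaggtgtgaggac

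Hsph1 and Dnaja1, which followed Dnajb1, carry a single match each, in Hsph1 36 to 24 bases before the annotated start and in Dnaja1 9 to 21 bases after its first base. Hspa8 carries 2 such elements, 213 to 201 and 55 to 43 bases before its start, and did not follow Dnajb1 (r = 0.233). Dnajb1 itself holds only 2-unit matches in its window, and the Hspa1a window holds neither form of the letters searched. The pair Hspe1 and Hspd1 overlap in the annotation, and the Hspe1 and Hspd1 windows each hold 2 overlapping matches. Whether these are the same bases was not tested, so the promoter counts may hold the same element more than once. Hspa5 and Hsp90b1, the most strongly correlated pair, carry 1 and 2 ER stress elements. Dnajc3 carries 1 as well and had r = 0.354 with Hspa5 (adjusted p = 0.136 by permutation). Other correlated members had no match listed. Hsp90aa1 (r = 0.675 with Dnajb1) is not among the members with either heat shock element. Dnajb11 (r = 0.753 with Hspa5) is not among those with an ER stress element. Windows were matched for 59 of 73 members, and whether Hsp90aa1 and Dnajb11 were among them is not given here. A match describes letters in a window and says nothing of whether a factor is bound there.

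Marker scores of neighbouring tissue moved with several of the same members. In a model with group means and both scores, 5 of 67 members had a slope below 0 on the choroid plexus score at an adjusted p under 0.05 (7.46%, beside 0.521% of all genes), and 0 had a slope above 0 (beside 2.77%). These were Dnajb1 (-0.11 log2 per SD of the score, adjusted p = 0.0206), Hspa12a (-0.09), Hsp90aa1 (-0.08), Dnaja1 (-0.07) and Hspd1 (-0.06). On the thalamus score, 2 members had a slope above 0 (2.99%, beside 4.56%), Dnajc12 with 0.125 (adjusted p = 0.00606) and Dnajb9 with 0.08 (adjusted p = 0.0359), and 0 had one below 0 (beside 4.18%). Dnajb9 is a BiP partner in the disposal of misfolded ER proteins. Each of these 7 slopes kept its sign when any single library was left out, and Dnajb1 ranged from -0.14 to -0.10.

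The counts of such slopes did depend on single libraries. The 5 on the choroid plexus score became 1 without SHAM 5 (beside 0.112% of all genes) and 2 without SHAM 3 (0.279%) or SHAM 7 (0.174%). They became 3 without Treatment 2, Treatment 6, OVX 7, SHAM 1 or SHAM 2 (0.347 to 0.434%). The 2 on the thalamus score became 0 without SHAM 5 (1.18%) and 4 without Treatment 1 (4.78%). They became 1 without Prevention 3, Treatment 6, SHAM 3 or SHAM 7 (3.17 to 4.46%). Within the 17 libraries outside the high set the counts were 2 (Hspa12a and Hsp90aa1, beside 0.701%) and 1 (Dnajc12, beside 3.16%). These slopes describe libraries and not treatments, and whether they reflect carried tissue was not tested.

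**Figure D5:**
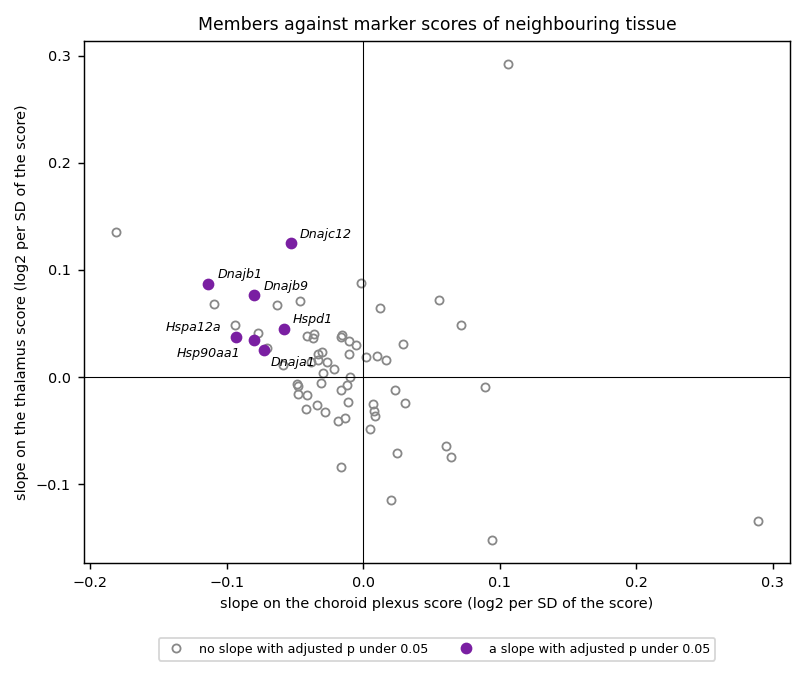
Slope of each tested member on the choroid plexus marker score (horizontal axis) and on the thalamus marker score (vertical axis), in log2 per SD of the score, from 1 model with group means. The 7 filled members with an adjusted p under 0.05 all lie left of 0 on the choroid plexus axis and above 0 on the thalamus axis.

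Members differed widely in how much they varied within groups. The SD within groups was largest for Dnajc22 (0.72 on the log2 scale), Hspb7 (0.60) and Hspa1a (0.37), of which Dnajc22 and Hspb7 are low, with means of 10.8 and 15.4 normalised counts. It was smallest for Dnajb6 (0.05), a suppressor of protein aggregation, Hspa4 (0.05) and Dnajc27 (0.05). Dnajb6 stayed between 2616 and 2950 normalised counts in all 24 libraries, and its differences between groups were at most 0.03 in size. The median SD of the 63 members with a mean of at least 100 was 0.111, beside 0.129 for all tested genes at that level. OVX 3 held the highest value for 15 of 67 members and SHAM 2 for 9, while Prevention 2 held the lowest for 13 and OVX 2 for 10.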

How the data were processed

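RNA from hippocampus was sequenced in 24 libraries of 4 groups, grouped by the labels. The deposited table holds 1 signal value per gene and library, a normalised count made by the authors; per the submitters' processing notes the tools were kallisto 0.43 and DESeq2, and the genome build and annotation are not named in those notes. Values were not whole, so no count test was run, and depth is an estimate. Log2(value + 1) of genes with a mean of at least 10 was fitted with 1 mean per group over all 24 libraries in limma 3.58.1 (R 4.3.3, empirical Bayes with trend), for 6 comparisons, with Benjamini-Hochberg adjustment over 16119 genes at 0.05. Intervals are at 95%. The fit was tested on simulated data. Correlations used 100000 permutations within groups (Python 3.11.15).

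Members and lists were chosen with earlier results of these data known. The text names the 5 members with the smallest p in each comparison, preset core members, from each other list the 2 genes with the smallest p in each comparison that includes OVX, and the 3 members with the largest and smallest spread. Marker scores are mean log2 levels. The labels do not say that replicates are separate animals, so p-values measure the spread between these samples, which may be technical. Alternatives covered the pseudocount, filter, normalisation, fit, weights, replicate number, marker scores, library set and single libraries; those on marker scores in correlations and slopes, and the slopes themselves, were chosen after seeing the data. There were 0 columns of per-sample values left unused.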

Additional observations from a re-analysis of the deposited data

Results flagged for a closer look

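Of 72 groups of 18 members examined for a stray library, 3 had one that stood apart by Dixon's test; chance alone flags about 1 group in 20. Hspa1a was 1554 normalised counts in SHAM 2, the highest of 7 libraries. Dnajc12 was 636 in Treatment 6, the highest of 5 libraries, and 664 in SHAM 5, the highest of 7. Thalamus scores were 9.51 in Treatment 6 and 9.69 in SHAM 5, against 7.60 to 8.15 in the other Treatment and 7.72 to 8.10 in the other SHAM libraries; the part of carried tissue in the Dnajc12 values was not tested.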

How the results depend on the processing

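With the main count at 0 of 67 members, the alternatives left Treatment against OVX, Treatment against Prevention, OVX against SHAM and Treatment against SHAM at 0. For Prevention against OVX the count was 1 with the choroid plexus score as a covariate (Hspa8), beside 267 of all 16119 tested genes. It was 2 with the thalamus score (Hspa8 and Dnajc4), beside 594 of all tested genes. When single libraries were left out it was 0 to 4, with 1 without OVX 4 and 4 without OVX 7. For Prevention against SHAM it was 2 with library weights (Hspa13 and Hspa8) and 0 to 1 without single libraries, with 1 without SHAM 5. The numbers of all genes called with weights or without single libraries are not given here, so those member counts have no background. Of 1130 recomputed changes of named members, 1117 kept sign and side of the threshold, 10 newly passed it and 3 changed sign with the library set term: Dnajc4 to 0.067 against OVX and 0.0926 against SHAM, and Hspe1 to 0.0200 against SHAM, all for Prevention. Prevention against OVX or SHAM could not be fitted within 1 library set. Among heat-inducible pairs, 1 passed without the 2 farthest libraries and 1 with marker scores subtracted, and among ER pairs 0 passed without the 2 farthest. Signs changed for Hspa5 with Dnajb9 (r = -0.219), Dnajc10 (-0.381) and Dnajb12 (0.145) without the 2 farthest, with Hspa13 (0.00579) after quantile normalisation and with Dnajb12 (0.116) after subtracting scores, and for Dnajb1 with Hspa8 (-0.128) after subtracting scores. Slopes numbered 1 to 7 (choroid plexus, beside 0.112 to 0.831% of all genes) and 0 to 4 (thalamus, beside 1.18 to 4.89%) without single libraries. Outside the high set they numbered 2 and 1 (beside 0.701% and 3.16%). The causes were not tested. With the replicate number as a replicate block, 0 members were called in each comparison. Same-numbered libraries of different groups had residual correlations of -0.442 to 0.371 (median -0.124, 8 of 30 above 0.1). Libraries of different number had a median of 0.0352 (73 of 184 above 0.1). These values show no pairing by number, but they cannot tell whether the numbers mark shared handling.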
